A study of Mus musculus with 4 samples.

Results

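The transcripts described here are those of the activator protein 1 (AP-1) family in mouse helper T (Th) cells, namely the Batf factors Batf and Batf3, the Jun factors Jun, Junb and Jund, the Fos factors Fos, Fosb, Fosl1 and Fosl2, and Atf3. The 10 genes were taken by name, although earlier results of these data were known when they were chosen. They were read by 12 of the 41173 probes used, out of 18749 genes named on the array. Junb and Fosl2 had 2 probes each and the other members 1. Their expression was read by 4 Agilent mouse arrays of the one-colour kind, which shared 1 slide and 1 scan, with 1 array for each of 4 conditions. Naive CD4 T cells (CD44low, CD62Lhigh and CD25 negative) from the spleen of C57BL/6J mice labelled female were either Bach2 WT or Bach2 KO, the latter from Bach2flox/flox mice crossed with CD4-Cre TG mice, in which Cre is driven by the Cd4 promoter and therefore acts in T cells. The methods give an age between 8 and 12 weeks. In both genotypes the cells received an anti-TCR-β mAb at 3 μg per ml together with an anti-CD28 mAb at 1 μg per ml for 2 days, and then 3 days with IL-2, for which the labels give 2.5 ng per ml. They were taken on day 5 as they were, written (-), or after 4 h on immobilized anti-TCR-β mAb with no IL-2 added, written (+). The labels name no Cre for the WT cells, the study describes its WT control mice as CD4-Cre without tying this to the arrays, and the labels do not say how many mice stood behind an array.

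AP-1 proteins are basic leucine zipper (bZIP) transcription factors that bind DNA only as pairs, and the pair decides which sites are bound and whether transcription is raised or held down. Jun proteins pair with each other, with Fos proteins, with Batf factors or with Atf3, whereas Fos proteins do not pair with each other stably. In T cells, signals from the TCR induce several of the genes within minutes to hours, and Batf with a Jun protein and Irf4 or Irf8 binds composite sites in cytokine genes. Bach2 is a bZIP protein as well and recognises sites that resemble those of AP-1.

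Signals are the scanner's background-subtracted intensities, and every difference is a log2 difference between 2 arrays after each had been scaled to its own 75th percentile, which lay at 436 for WT (-), 434 for KO (-), 313 for WT (+) and 353 for KO (+). Raw signals of the (-) and (+) arrays are therefore not on one scale, and levels of different probes are not set against each other. With 1 array per condition there was no test and no replicate check, so a difference was called by size, at 2-fold. As a stand-in for an error, differences from several probes of the same gene had a median SD of 0.09 for the difference between genotypes before re-stimulation, 0.11 after it, 0.15 for the response of WT cells and 0.14 for that of KO-labelled cells (log2, 3852 genes), which leaves out all variation between mice, cultures and hybridizations. The scanner software's own error for a member's signal was at most 16.2% wherever the member was detected, a word that here means well above background by the scanner's flag. The targeted gene, Bach2, read 2932 on WT (-), 2633 on KO (-), 3309.7 on WT (+) and 3079.7 on KO (+), differences of -0.15 and -0.28. The position of this probe relative to the floxed part is not known here, so it gives no clear check of the genotype, and the arrays carry their labelled names. Scaling to the array median or to Cd3e, which shifts all genes alike, moved every genotype difference of the (-) arrays by -0.06 or 0.14 and of the (+) arrays by -0.03 or 0.10, so that values nearer to 0 than this carry no direction.

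The T cell list was detected in full on each array, 9 of 9 markers, with a median genotype difference of -0.03 before and 0.09 after re-stimulation. Of 10 mast cell and basophil markers on the array, 2 were detected on WT (-), 7 on KO (-), 1 on WT (+) and 7 on KO (+), and the summed signals of the list were 213, 1463, 327 and 1911 in that order, while Ms4a2, Mcpt4 and Tpsb2 were detected on 0 of the 4 arrays. Of 10 myeloid and dendritic cell markers, 5, 4, 3 and 4 were detected, with summed signals of 307, 587, 229 and 384, and Itgam, Lyz2, Clec9a and Siglech were at background on all 4 arrays. Of 4 Y-linked genes, 3 were detected on both arrays labelled KO and 0 on the WT arrays, although the labels give female mice for both genotypes and the methods mention both sexes for work in vitro. Xist, read as a further check of sex, was detected on all 4 arrays. Its signals were 9524 on WT (-), 4623 on KO (-), 5221 on WT (+) and 2585 on KO (+), with genotype differences of -1.04 and -1.19. Whether the arrays labelled KO hold cells of both sexes was not tested. Sex and genotype label can therefore not be told apart for any member, and the part of the other cell types in the results was not tested.

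**Figure D1:**
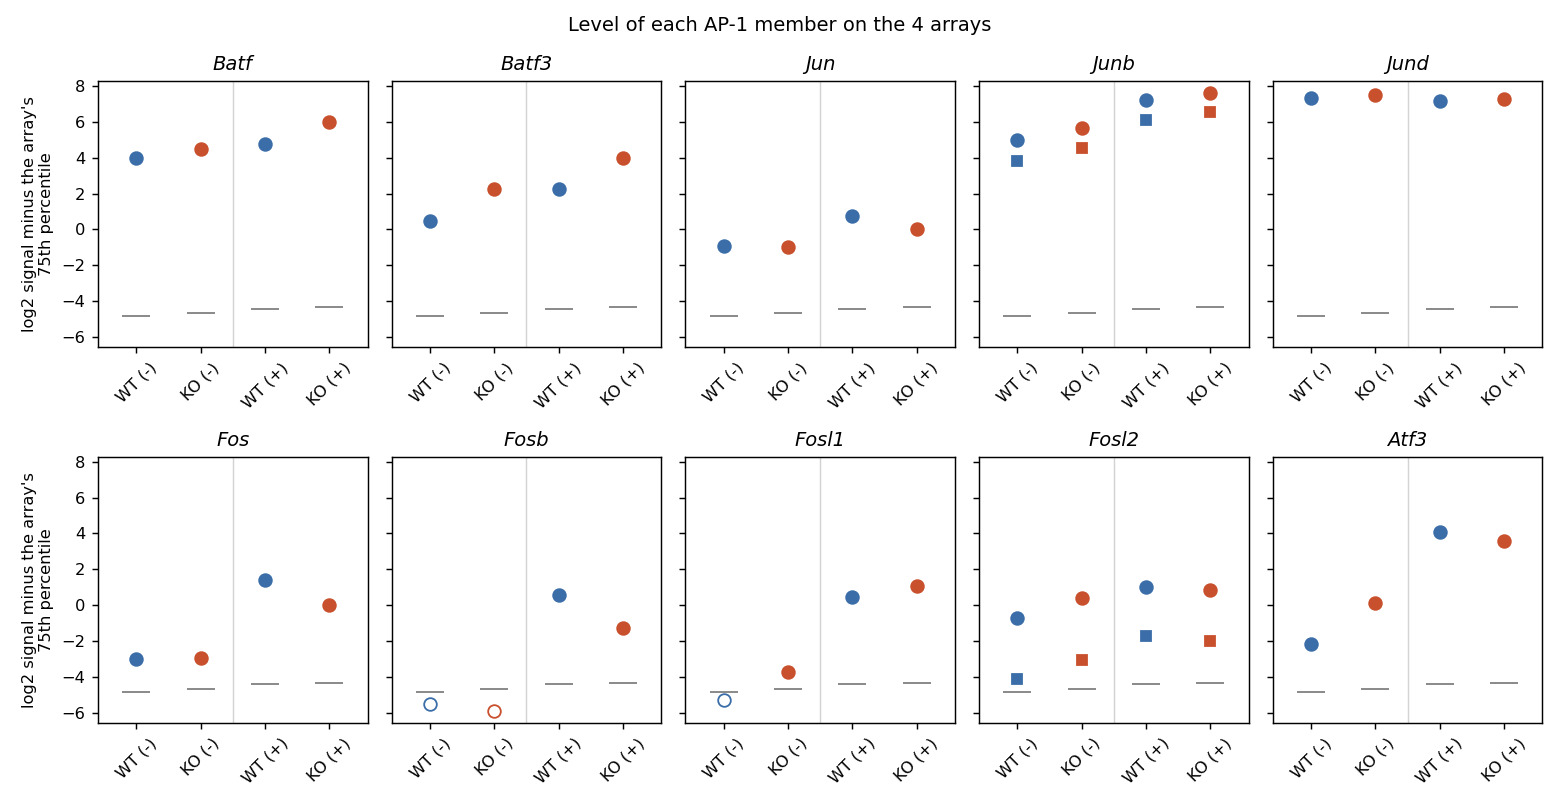
Scaled log2 signal (vertical axis, log2 signal minus the array's 75th percentile) of each AP-1 member on the arrays WT (-), KO (-), WT (+) and KO (+), 1 array each. Blue is WT and orange is labelled KO, squares are the second probes of Junb and Fosl2, open symbols were not detected and grey bars mark the lowest value detected on each array. Batf is highest on KO (+), and Fos, Fosb, Fosl1 and Atf3 show the widest gap between (-) and (+) arrays.

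Of the 10 members, 8 were detected on all 4 arrays. The exceptions were Fosb, which was at background on both (-) arrays, and Fosl1, which was at background on WT (-). Before re-stimulation, 9 members could be compared between genotypes, and 4 of them, Atf3, Batf3, Fosl1 and Fosl2, were at least 2-fold higher on the array labelled KO, while 0 were 2-fold lower. The background for such a difference was 5.26% of 12136 genes, while 2.82% were 2-fold lower and 8.08% differed in either direction. The median of the 9 members was 0.69, beside -0.003 for all genes compared. After re-stimulation all 10 members were compared, and the family was split: Batf and Batf3 were at least 2-fold higher and Fos and Fosb at least 2-fold lower on the array labelled KO, with a median of -0.02 (0.07 with scaling to Cd3e) beside 0.02 for all genes. Here 5.17% of 12348 genes were 2-fold higher, 3.85% were 2-fold lower and 9.02% differed in either direction. In bulk RNA, fewer cells that carry a transcript and less transcript per cell cannot be told apart.

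**Figure D2:**
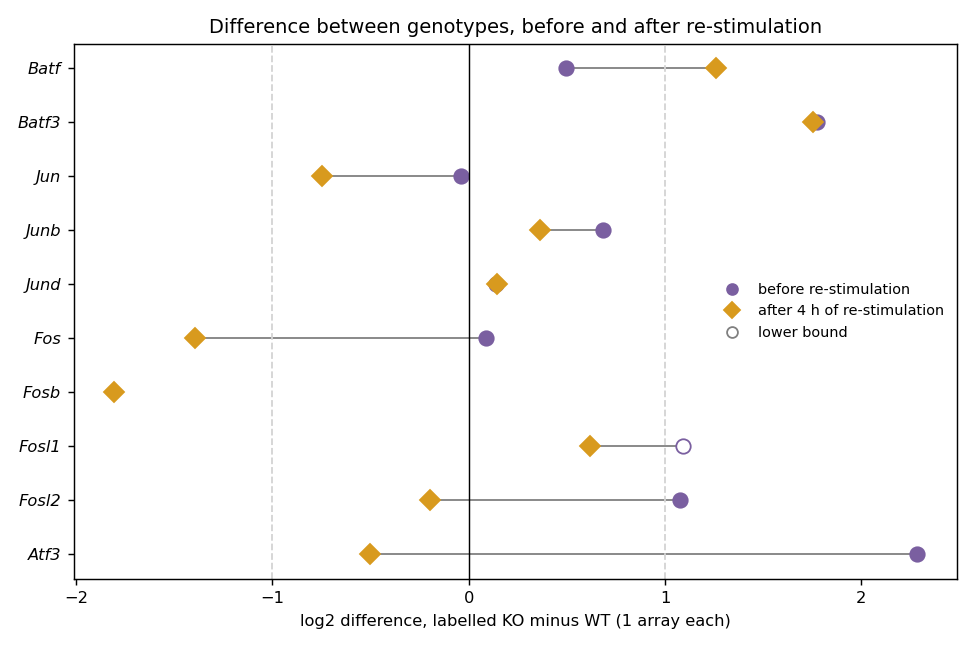
Log2 difference between the array labelled KO and the WT array (horizontal axis) for each member before (circles) and after (diamonds) re-stimulation, 1 array per condition, with dashed lines at 2-fold and an open symbol for a lower bound. The diamonds of Jun, Fos, Fosb, Fosl2 and Atf3 lie left of 0, whereas Batf, Batf3, Junb, Jund and Fosl1 lie right of 0 in both states.

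The Batf factors lack the transactivation domain of Fos and act with Jun partners. Batf, which is required for the development of Th17 and follicular helper T cells and for class switching in B cells, gave signals of 6933 on WT (-), 9715 on KO (-), 8465 on WT (+) and 22868 on KO (+). KO (+) stood apart from the other 3 arrays. On the scaled values, Batf was 1.41-fold higher on the array labelled KO before re-stimulation (log2 difference 0.49) and 2.39-fold higher after it (1.26), and the second difference exceeded the first by 0.77, a value reached or passed by 3.54% of the 10810 genes detected on all 4 arrays. From (-) to (+), Batf was higher by 0.77 in WT cells and by 1.53 in KO-labelled cells.

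Batf3, best known for its role in the development of cross-presenting dendritic cells, and also transcribed in activated T cells, had signals of 608 on WT (-), 2067 on KO (-), 1498 on WT (+) and 5701 on KO (+). The WT (-) array was the lowest and KO (+) the highest. The genotype difference was 3.42-fold before re-stimulation (1.77) and 3.37-fold after it (1.75), so that unlike Batf the gap between the genotypes was nearly the same in both states. The change of -0.02 between the states was smaller than the spread between probes and took the other sign with scaling to the array median and with normexp correction. The response to re-stimulation was likewise close to equal, 1.78 in WT cells and 1.76 in KO-labelled cells. Batf3 was the member with the highest genotype difference after re-stimulation, and 1.89% of all genes were as high or higher. Of the dendritic cell markers, Zbtb46 and Xcr1 differed by -0.35 and -0.02 between genotypes after re-stimulation and Clec9a was at background, while Itgax was higher by at least 2.13 before and at least 1.77 after it and the macrophage marker Adgre1 by 1.16 and 1.56. Their part in the Batf3 values was not tested.

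The promoters of Batf and Batf3 are shown because both transcripts were higher on the arrays labelled KO in both states. Junb, Jund and Fosl1 were higher in both states as well, and their promoters are not shown. The sequences are the 140 bases before the annotated start of transcription, from RefSeq (assembly GRCm38.p6), written 5′ to 3′ on the strand of the gene, with matches to the searched motifs in capitals.
Batf (chr12:85686580-85686719, plus strand): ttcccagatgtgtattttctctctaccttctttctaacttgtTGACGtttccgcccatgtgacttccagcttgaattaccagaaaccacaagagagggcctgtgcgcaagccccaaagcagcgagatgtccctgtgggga
Batf3 (chr1:191098274-191098413, plus strand): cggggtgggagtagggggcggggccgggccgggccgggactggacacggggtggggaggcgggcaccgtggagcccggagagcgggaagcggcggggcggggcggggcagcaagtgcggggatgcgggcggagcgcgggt
The motifs searched, on both strands of the 250 bases before to 50 after each start, were the AP-1 motif TGANTCA, the cAMP response element (CRE) TGACGTCA, and, added after those had been searched, the AP-1-like TGACATCA and the CRE core TGACG, which also lies within the full CRE. The capitals in Batf mark TGACG, which begins 98 bases before the start and which 20.8% of all 32851 promoters of that length hold. Batf3 held none of the 4 motifs in this window.

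The Jun factors are the usual partners of Batf and Fos proteins. Jun, the founding member and a strong activator, had signals of 229.8 on WT (-), 223 on KO (-), 527 on WT (+) and 353 on KO (+), each the mean of 9 spots. The (-) arrays were alike and both (+) arrays were higher, WT (+) most. Before re-stimulation the genotypes differed by -0.04 ± 0.03 (SE over spots of 1 array per condition), which turned positive with scaling to Cd3e, and after it by -0.75 ± 0.02, a 1.68-fold lower value on the array labelled KO. Jun was higher after re-stimulation by 1.68 in WT cells and by 0.96 in KO-labelled cells, where it passed 2-fold only with scaling to Cd3e or to the 75th percentile of the probes detected on every array.

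Junb, an activator in Th2 cells that binds the Il4 promoter, had signals of 13707 on WT (-), 21937 on KO (-), 47399.7 on WT (+) and 68899 on KO (+). Within each state the array labelled KO was the higher, and the (+) arrays were above both (-) arrays. The genotype difference was 0.69 before and 0.37 after re-stimulation, and the second probe gave 0.69 and 0.45. The response was 2.27 in WT cells and 1.95 in KO-labelled cells, with 2.26 and 2.02 from the second probe.

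Jund, which is transcribed in resting and activated cells alike, had signals of 71946 on WT (-), 78956 on KO (-), 44703 on WT (+) and 55823 on KO (+). It varied least of the 10 members, and its 4 scaled log2 values lay between 7.16 and 7.51. The genotype difference was 0.14 before and 0.15 after re-stimulation. Both responses were small, -0.21 in WT cells and -0.20 in KO-labelled cells, and turned positive with scaling to Cd3e. Of the Jun factors 0 of 3 passed 2-fold between genotypes in either state, beside 8.08% of all genes before and 9.02% after re-stimulation, from which nothing particular to them can be read.

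The Fos factors form stable pairs with Jun proteins, and Fos and Fosb carry a strong activation domain that Fosl1 and Fosl2 lack. Fos, the classical immediate early gene, had signals of 53.4 on WT (-), 56.4 on KO (-), 830.2 on WT (+) and 356 on KO (+), each the mean of 8 to 10 spots. The (-) arrays were alike and low, and of the (+) arrays WT was well above KO. The genotype difference was 0.09 ± 0.05 (SE over spots) before re-stimulation and -1.39 ± 0.04 after it, that is 2.63-fold lower on the array labelled KO. Fos was higher by 4.44 after re-stimulation in WT cells, or 21.7-fold, and by 2.96 in KO-labelled cells, or 7.77-fold. The difference of -1.48 between these responses had a value as low or lower in 1.11% of genes.

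Fosb, a close relative of Fos, was at background on both (-) arrays, with signals of 9.37 and 7.25, and had signals of 458 on WT (+) and 148 on KO (+). It was therefore measured on the (+) arrays alone, where it was 3.50-fold lower on the array labelled KO (-1.81), the lowest genotype difference of the family, and 1.03% of genes were as low or lower. Re-stimulated cells were at least 42.2-fold higher than (-) cells in WT (5.40) and at least 10.8-fold higher in KO-labelled cells (3.44). Both folds are bounds set by the lowest signal detected on each (-) array. They hold for this processing only, since normexp correction gave smaller responses of 3.09 and 1.65.

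Fosl1, also named Fra-1, had signals of 11.1 on WT (-), which was at background, 32.1 on KO (-), 428 on WT (+) and 741 on KO (+). In each state the array labelled KO was the higher one. The genotype difference was at least 1.09 before re-stimulation and 0.62 after it. The first value rests on a probe near background, and it fell below 2-fold with quantile normalization and with normexp correction, the lowest value being 0.29. The response was at least 5.31 in WT cells and 4.83 in KO-labelled cells, the largest measured response of the family on the arrays labelled KO, where that of Fosb is a bound. With normexp correction the responses of Fosl1 were 2.96 and 3.25.

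Fosl2, or Fra-2, had signals of 268 on WT (-), 562 on KO (-), 630.3 on WT (+) and 621 on KO (+). Within the (-) arrays WT was the lower, and the (+) arrays lay closer together than the (-) arrays did. Its genotype difference was 1.08 before re-stimulation and -0.20 after it, and the second probe gave 1.09 and -0.31. The response was 1.72 in WT cells and 0.44 in KO-labelled cells on the main probe and 2.43 and 1.03 on the second one. Both probes thus gave a smaller response on the arrays labelled KO, while the size of the response depended on the probe.

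Atf3, a stress-inducible member of the ATF group that represses transcription as a homodimer, had signals of 97.5 on WT (-), 473 on KO (-), 5264 on WT (+) and 4193 on KO (+). The WT (-) array was the lowest, KO (-) lay between, and both (+) arrays were far above them. Before re-stimulation Atf3 was 4.87-fold higher on the array labelled KO (2.28), the largest measured genotype difference of the family in that state, with 1.20% of all genes as high or higher. After re-stimulation it was 1.42-fold lower (-0.50). The response was 75.3-fold in WT cells (6.23) and 10.9-fold in KO-labelled cells (3.45). The difference of -2.79 between them was matched or passed by 0.12% of the 10810 genes. With normexp correction the responses of Atf3 were smaller, 5.36 and 3.18, with a difference of -2.18. Its genotype difference before re-stimulation was then 1.65, close to that of Batf3 at 1.61.

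The start regions of Fos, Fosb and Atf3, which had large responses and an entry in the promoter table, and that of Jun are shown for comparison, in the same form and from the same source as those of the Batf factors.
Fos (chr12:85473750-85473889, plus strand): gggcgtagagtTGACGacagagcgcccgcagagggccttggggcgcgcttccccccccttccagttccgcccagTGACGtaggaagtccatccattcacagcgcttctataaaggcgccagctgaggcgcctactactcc
Fosb (chr7:19310046-19310185, minus strand): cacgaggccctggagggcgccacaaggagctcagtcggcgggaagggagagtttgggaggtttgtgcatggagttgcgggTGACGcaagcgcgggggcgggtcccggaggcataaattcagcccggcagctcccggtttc
Atf3 (chr1:191183334-191183473, minus strand): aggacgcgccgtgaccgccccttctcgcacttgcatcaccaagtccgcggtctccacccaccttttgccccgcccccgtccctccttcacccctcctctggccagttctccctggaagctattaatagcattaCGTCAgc
Jun (chr4:95052223-95052362, minus strand): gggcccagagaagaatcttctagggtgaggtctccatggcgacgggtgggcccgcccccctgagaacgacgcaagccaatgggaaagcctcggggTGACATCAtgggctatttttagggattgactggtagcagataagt
The capitals mark TGACG in Fos, beginning 129 and 66 bases before the start, and in Fosb, beginning 60 bases before it. In Atf3 the capitals CGTCA are TGACG read on the other strand and begin 7 bases before the start. Jun holds TGACATCA, beginning 45 bases before the start, a motif that 3.62% of all promoters hold. Of the 9 members with an entry, 5 held TGACG (Atf3, Fosb, Junb, Fos and Batf), a motif added later that 20.8% of all promoters hold. The AP-1 motif TGANTCA, which 7.81% of all promoters hold, was held by 0 of the 9, as was the full CRE, which 1.79% hold. A match is a description of the letters and not of a bound site. On the chromosomes, Batf3 and Atf3 are neighbours on chromosome 1 with 1 protein-coding gene between them, Fam71a, and Fos and Batf are neighbours on chromosome 12 with Jdp2 between them. The members of each pair differed in pattern, since Batf3 and Batf were higher on KO (+) than on WT (+) while Atf3 and Fos were lower.

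Seen over the family, 8 of 10 members were at least 2-fold higher after re-stimulation in WT cells, beside a background of 13.2% of 12388 genes, with 26.7% differing in either direction. The exceptions were Batf, at 0.77 (1.07 with scaling to Cd3e), and Jund. In KO-labelled cells 7 of 10 were at least 2-fold higher, beside 12.4% of 12395 genes, with 25.3% in either direction. The exceptions were Jun, at 0.96 (1.22 with scaling to Cd3e), Fosl2, at 0.44 (1.03 on its second probe), and Jund. The median response was 2.03 in WT cells and 1.86 in KO-labelled cells, beside -0.01 and 0.01 for all genes. In WT cells the order of the measured responses was Atf3, Fos, Junb, Batf3, Fosl2, Jun, Batf and Jund, and the steps from Batf3 to Fosl2 and from Fosl2 to Jun were within the spread between probes. Fosb and Fosl1 had bounds above the value of Fos, and their place relative to Atf3 and to each other is not known. With normexp correction they lay at 3.09 and 2.96, below Fos (3.21). In KO-labelled cells the order was Fosl1, Atf3, Fos, Junb, Batf3, Batf, Jun, Fosl2 and Jund, with each of these steps beyond that spread. With normexp correction the steps from Fosl1 (3.25) to Atf3 (3.18) and from Junb (1.75) to Batf3 (1.74) were within the spread. Fosb, again a bound, lay above Fos at a place not known further, but below it with normexp correction (1.65 beside 1.96). The place of Fosl2 in both orders rests on its main probe. Its second probe gave 2.43 in WT cells, above Junb, and 1.03 in KO-labelled cells, above Jun.

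**Figure D3:**
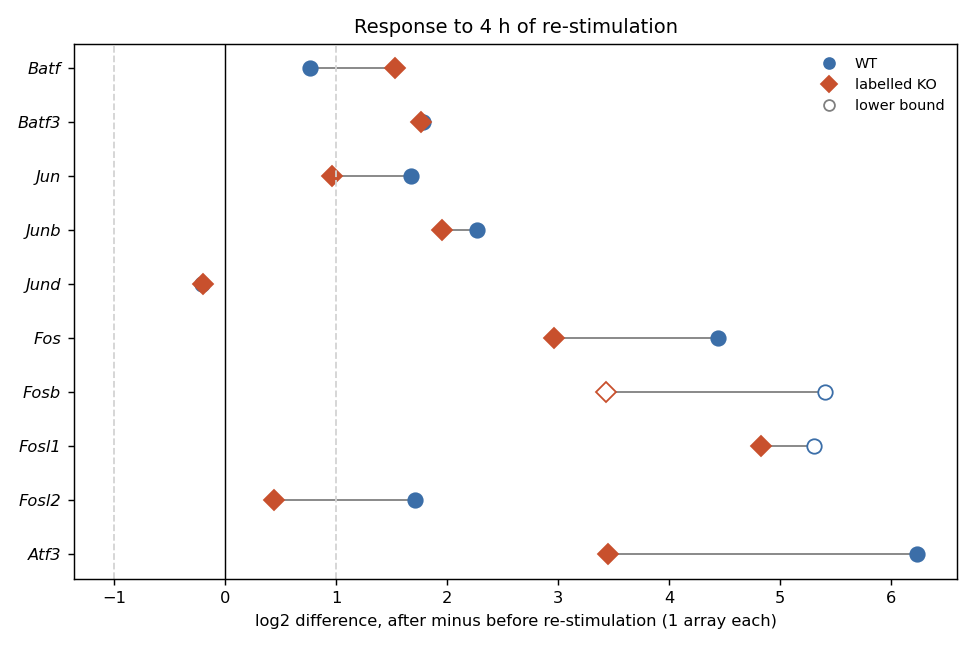
Log2 difference between (+) and (-) arrays (horizontal axis) for each member in WT cells (circles) and in KO-labelled cells (diamonds), 1 array per condition, with dashed lines at 2-fold and open symbols for lower bounds. The diamonds of Atf3, Fos, Fosl2 and Jun lie left of their circles, by 2.79 for Atf3 and 1.48 for Fos, and that of Batf lies to the right by 0.77.

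The change of the genotype difference between the states, which equals the response of KO-labelled cells minus that of WT cells, could be given for the 8 members detected on all 4 arrays. For Atf3, Fos and Fosl2 it was -2.79, -1.48 and -1.27, each past 2-fold, and 0 members passed 2-fold in the other direction. The background was 3% of genes for a change of this size downwards and 1.82% upwards, or 4.82% either way. Among the 1154 genes detected on all 4 arrays that were at least 2-fold higher after re-stimulation in WT cells, as these 3 were, 15.8% (182) had a response at least 2-fold smaller in KO-labelled cells and 74.1% had a smaller one, although such genes were picked on an array that enters the difference. Of the 1073 genes picked in the same way in KO-labelled cells, 49.4% had a smaller response there than in WT cells. Genes outside the family also had lower values, with -1.93 for Nr4a2, -1.63 for Gadd45b and -1.58 for Egr1, so a smaller response was not particular to AP-1. Jun followed with -0.71 and Junb with -0.32, and Batf had the only value above the spread between probes in the other direction. Atf3 and Fosl2 were higher on the array labelled KO before re-stimulation and lower after it. Of the 376 genes that were at least 2-fold higher before re-stimulation and detected on all 4 arrays, 54 (14.4%) were below 0 after it.

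**Figure D4:**
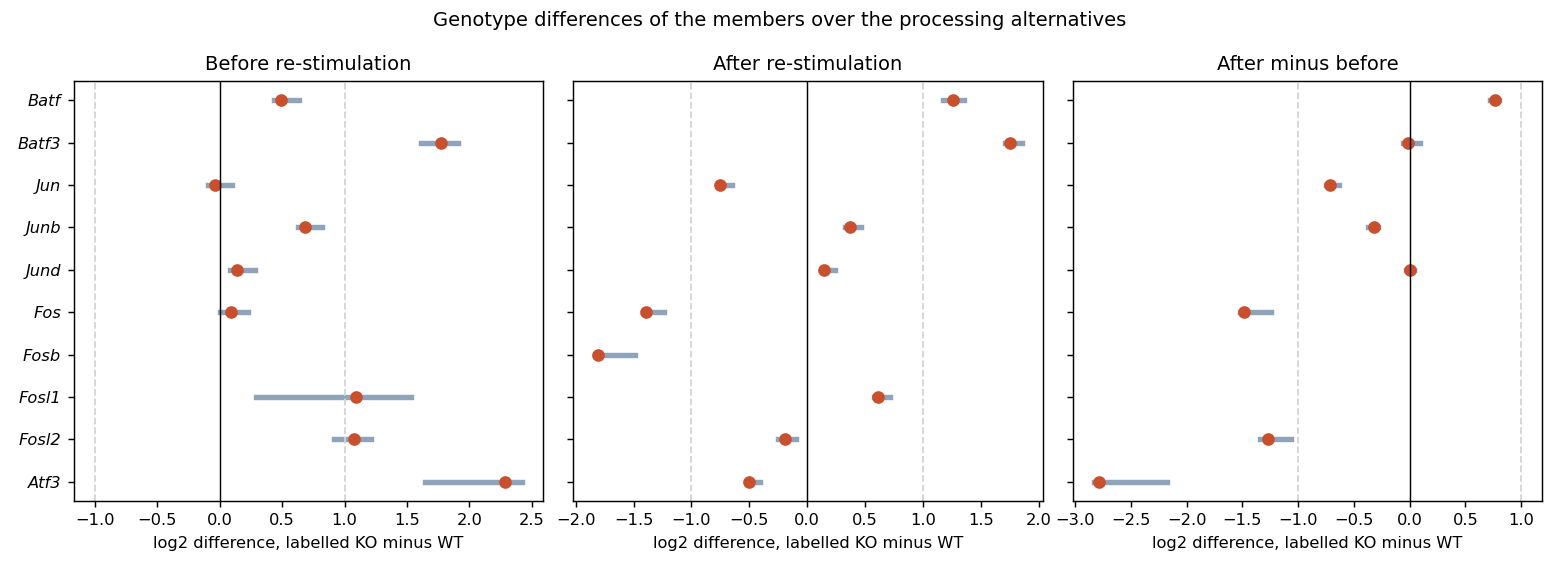
Genotype difference of each member (horizontal axes, log2, labelled KO minus WT) before re-stimulation, after it, and after minus before. Orange points are the values reported and blue bars span the values under the other ways of scaling, background correction and filtering. The bar of Fosl1 before re-stimulation is the longest and runs from 0.29 to 1.54, and the bar of every member stays on one side of 0 after re-stimulation.

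The genes whose 4 scaled values, each centred on its own mean, lay closest to those of a member were sought among the 10809 other genes detected on all 4 arrays. For Batf the closest were Tmem150a, at a root mean square difference of 0.018 (log2), Rhbdf2 at 0.055 and Akr1b8 at 0.071. For Batf3 they were Ptprk at 0.17, the perforin gene Prf1 at 0.23 and Krt16 at 0.25. For Atf3 the stress-response gene Gadd45b was the closest at 0.36, and Mpeg1 lay at 0.49, so its pattern had no near match. Fos lay closest to Ramp3, Clstn3 and Slc2a6 (0.11 to 0.18), Fosl2 to Trafd1, Crem and Rnf19b (0.089 to 0.11), Jun to Prrg4, P2rx2 and Ndfip2 (0.050 to 0.078) and Junb to Icam5, Ttc39b and Il15ra (0.087 to 0.10). With 4 arrays such a likeness describes these arrays alone. Crem, a bZIP gene of the CREB family, had genotype differences of 1.29 before and -0.06 after re-stimulation, beside 1.08 and -0.20 for Fosl2.

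Other bZIP genes, several of which can pair with AP-1 proteins, were measured for 21 of 22 listed. Before re-stimulation 4 were at least 2-fold higher on the array labelled KO and 0 lower, beside 5.26% and 2.82% of all genes, with a median of 0.36. After it 2 were higher and 0 lower, beside 5.17% and 3.85% of all genes, with a median of 0.13. Maf, an activator of Il4 transcription, had signals of 57.2 on WT (-), 1432 on KO (-), 123 on WT (+) and 2391 on KO (+), with differences of 4.65 and 4.10. The WT arrays were both far below the arrays labelled KO. Nfil3, which is induced by IL-4, differed by 1.41 before and 0.46 after re-stimulation. Batf2, which the study counts in the Batf family but which is not a member here, differed by at least 1.81 and by -0.15. Jdp2, a repressor that pairs with Jun proteins and the gene between Fos and Batf, had signals of 376 on WT (-), 489 on KO (-), 88.2 on WT (+) and 312 on KO (+). Jdp2 was lowest on WT (+), and its genotype difference was 0.39 before and 1.65 after re-stimulation.

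The Irf partners of Batf had the direction of Atf3 and Fosl2. Irf4, which is induced by TCR signals, had signals of 250.3 on WT (-), 414 on KO (-), 2746 on WT (+) and 2433 on KO (+). Irf8 had signals of 3350.3 on WT (-), 5673 on KO (-), 19148 on WT (+) and 15620.2 on KO (+). For both genes the array labelled KO was the higher before re-stimulation and the lower after it, with differences of 0.73 and -0.35 for Irf4 and 0.77 and -0.47 for Irf8, none past 2-fold. The response of Irf4 was 3.94 in WT cells and 2.86 in KO-labelled cells, and that of Irf8 was 3.00 and 1.76.

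Kinases and factors that act on AP-1 genes or proteins were within 2-fold between genotypes. Of 18 measured, 0 were 2-fold apart before and 0 after re-stimulation, beside 8.08% and 9.02% of all genes, a share at which few or none of 18 would be. The medians were 0.005 and -0.06, and the values after re-stimulation ran from -0.90 (Rasgrp1) to 0.77 (Mapk14). Early response genes outside AP-1 were measured for 11 before and 13 after re-stimulation. Before it, Egr1 was higher on the array labelled KO (1.47) and Nr4a1, which encodes Nur77, was lower (-1.09), with a list median of -0.05. After it, Egr3 (-1.46) and Nr4a2 (-1.41) were lower, 0 were 2-fold higher and the median was -0.37. The shares of all genes past 2-fold given above, 8.08% before and 9.02% after, apply to this list too. In WT cells 11 of these 13 genes were at least 2-fold higher after re-stimulation, as were 11 in KO-labelled cells, with medians of 3.11 and 2.84. Of all genes, 13.2% and 12.4% were.

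**Figure D5:**
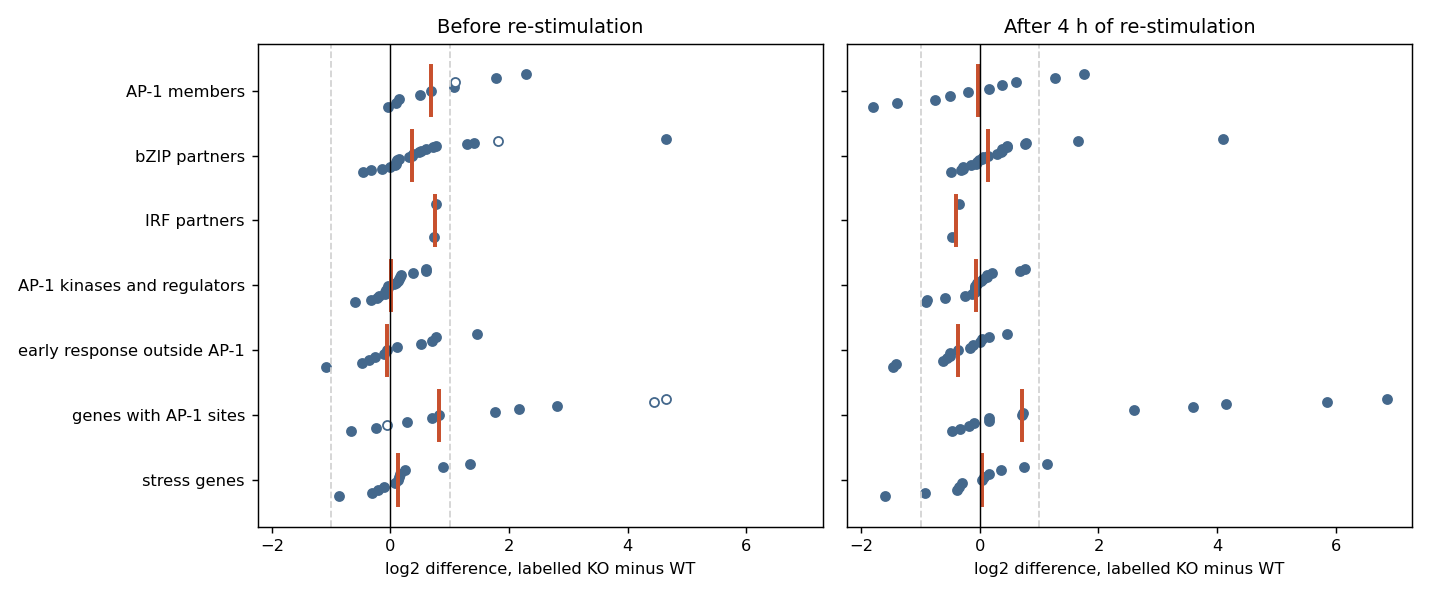
Log2 difference between the array labelled KO and the WT array (horizontal axes) before and after re-stimulation for the members and for each gene of the related lists, 1 point per gene, open for a bound, with the list median as an orange bar and dashed lines at 2-fold. The members span -0.04 to 2.28 before and -1.81 to 1.75 after re-stimulation, and the kinases and regulators have all their points within 2-fold.

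Genes with AP-1 sites in their control regions in T cells were compared for 11 before and 13 after re-stimulation. In each state 5 were at least 2-fold higher on the array labelled KO and 0 lower, with medians of 0.82 and 0.72. Of all genes, 5.26% were higher and 2.82% lower before re-stimulation, and 5.17% and 3.85% after it. Before re-stimulation the 4 largest were Il10 (at least 4.65), Il5 (at least 4.45), Il4 (2.81) and Il13 (2.16), and after it Il5 (6.86), Il10 (5.85), Il21 (4.15) and Il4 (3.59). On WT (+), the signals of Il5 (16.8) and Il21 (23.4) were near the lowest detected there, 14.5, so these 2 values rest on weak signals. Ifng, the Th1 cytokine, differed by 1.75 before and -0.09 after re-stimulation, so its genotype gap was present before re-stimulation and near 0 after it. Il2, whose promoter has AP-1 sites and which is the classical readout of AP-1 with NFAT, had signals of 17.5 on WT (-), 5.72 on KO (-), where it was at background, 37530 on WT (+) and 33743 on KO (+). Both (+) arrays were high for Il2, with a difference of -0.33. Of 11 stress genes, Gadd45b (1.33) was 2-fold higher before re-stimulation, and after it Chac1 (1.14) was higher and the heat shock gene Hspa1b (-1.60) lower. The list medians were 0.12 and 0.03, and 8.08% and 9.02% of all genes were past 2-fold either way.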

How the data were processed

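Total RNA (500 ng per sample) of 4 samples was labelled with Cy3, and each was read on 1 array. The labels do not say whether the (-) and (+) cells of a genotype came from 1 culture. For each array the authors deposited an intensity per spot from Agilent Feature Extraction (version 10.7.3.1 per the file headers, 10.7 per the labels), after that software had subtracted background and corrected for trends across the array. A series table of log2 values, also deposited by the authors, holds the same scaled values as used here, to within 0.01 for no fewer than 41001 of 41173 probes per array, and its columns have medians between -4.09 and -3.77. Its direction and scale are thus known, and it is not centred per gene.

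Control spots and spots flagged as uneven or as outliers (107 to 120 per array) were left out, spots of a probe were averaged as log2 and the 75th percentile was subtracted. Transcript accessions named 27479 of the 41173 probes through a RefSeq gene table (GRCm38.p6, names and order only, since the array design gives mm9). Where a gene had several probes, the brightest was taken. A gene entered a comparison where at least 1 of both arrays detected it (the flag for a signal well above background), and the dimmer side was raised to its array's lowest signal well above background (14.5 to 17.2), so that such folds are bounds. No spot was saturated, and precision is limited by the number of arrays. The spread is the SD between the probes of a gene.

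The members, the gene lists and the rules were chosen with earlier results of these data known. All members are named, 1 gene close to a member in pattern is not reported here, and in the lists at most 4 genes past 2-fold per comparison. Crem as a bZIP gene, Jdp2 beside its neighbours, Ifng, Il2, Irf4 and Irf8 were also given values, and Ifng, Il2 and the dendritic cell genes were chosen after their values were seen. B cell markers were well above background for 2 of 5 on each array, NK cell markers for 1 or 2 of 4, and CD8 T cell markers for 0 or 1 of 1 on the array. The tools were limma 3.58.1 under R 4.3.3 and, under Python 3.11.15, pandas 2.3.3, numpy 2.4.6 and matplotlib 3.10.9. The scripts were tested on simulated data. The alternatives were scaling to the array median, to Cd3e or to the 75th percentile of the probes detected on every array, quantile normalization, normexp correction (offset 50) with quantile normalization, the authors' log2 table, the mean over probes, detection on both arrays, neither filter nor floor, and a 3-fold rule. A log2 value counted as moved when its shift exceeded the median spread between probes.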

Additional observations from a re-analysis of the deposited data

Results flagged for a closer look

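Fosl2 and Atf3 went in opposite directions between the genotypes in the 2 states. The log2 difference of Fosl2 was 1.08 before re-stimulation and -0.20 after it, and that of Atf3 was 2.28 and -0.50. Each value compares 1 array with 1 array, and whether the states differ was not tested. With scaling to Cd3e the value of Fosl2 after re-stimulation was -0.10, within the spread between probes of 0.11. Of the 10810 genes detected on all 4 arrays, 32.7% had differences of opposite sign in the 2 states, counted at any size.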

How the results depend on the processing

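No paired analysis was possible because each condition had 1 array and the labels carry no replicate numbers, and for the same reason no replicate could be left out. Of 419 values of single members under the alternatives, 332 stayed within the spread between probes, 87 moved beyond it, and 0 of the values past 2-fold changed sign. The cause of the shifts below was not tested unless the construction of the alternative gives it. With a 3-fold rule, which is stricter by construction, 2 members were past it before and 2 after re-stimulation (4 and 4 at 2-fold). The share of all genes past 3-fold was not counted, so these counts have no background. With normexp correction, 2 members were past 2-fold before re-stimulation, since Fosl1 and Fosl2 (0.91) fell below it, and the median was 0.45 before re-stimulation and 1.70 for the response of KO-labelled cells. The median before re-stimulation (0.69) was 0.82 with scaling to Cd3e and 0.59 both with detection required on both arrays and without filter and floor. The median response of WT cells (2.03) was 1.73 with scaling to the array median, 2.32 with scaling to Cd3e and 1.75 with detection on both arrays, and that of KO-labelled cells (1.86) was 1.59 with scaling to the array median and 2.11 with scaling to Cd3e. Scaling moves all genes alike by construction: Cd3e moved their median by 0.14 before re-stimulation and by 0.30 and 0.26 in the responses of WT cells and KO-labelled cells, and the array median moved the responses by -0.30 and -0.27. Of all genes, 1630 were at least 2-fold higher and 1673 lower after re-stimulation in WT cells, against 1093 and 2664 with scaling to the array median, 2490 and 993 with Cd3e and 899 and 1122 with normexp correction. In KO-labelled cells these counts were 1534 and 1606, against 1064 and 2395, 2185 and 1043, and 880 and 1081. Between genotypes before re-stimulation 638 genes were higher and 342 lower, against 752 and 261 with Cd3e, 266 and 108 with normexp correction, 425 and 221 with detection on both arrays and 1212 and 686 without filter and floor. After re-stimulation 638 were higher and 476 lower, against 731 and 403 with Cd3e, 313 and 233 with normexp correction and 1437 and 1024 without filter and floor. Without filter and floor the responses gave 2951 and 2011 in WT cells and 2890 and 1953 in KO-labelled cells. Signal over background limits Fosb and Fosl1, which had no clear signal on 2 and 1 of the arrays.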
